A study of Mus musculus with 8 samples.

Results

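The NR4A receptors and 7 further genes that neurons switch on with activity were examined in retinas of mice labelled as lacking Kv8.2 and in wild-type retinas. The 10 genes are Nr4a1, Nr4a2, Nr4a3, Npas4, Klf4, Ier2, Arc, Homer1, Dusp1 and Btg2. They were matched by symbol, and all 10 were found among the 26824 genes of the count table. The list was selected on general knowledge of activity-dependent genes outside the EGR and AP-1 families, with values of these libraries already known, so their difference between the labelled groups is a description. Where a call from the fit over all genes is named for them, it describes that fit and is not independent evidence. All 10 passed the filter on low counts.

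The comparison addresses how retinal transcripts differ when Kv8.2 is missing. Kv8.2, the product of Kcnv2, is a modifying subunit that joins other Kv potassium channel subunits in photoreceptors and forms no channel alone. The wild-type group (WT) has 3 libraries, WT 1 to WT 3, and the knockout group (KO) has 5 libraries, KO 2 to KO 6. Both groups were untreated mice of 1 month under a daily light and dark cycle, and each library holds the total RNA of 2 retinas. The labels give no strain, targeting method, sex or time of day of dissection. Retinas were dissected into RNAlater before extraction. The series text says that the authors dropped 2 KO samples without naming them, so every deposited library was used here.

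NR4A proteins are nuclear receptors that act without a known activating ligand and are controlled mainly by how much of them a cell makes. They bind DNA as monomers at the NBRE element or as dimers. Like Arc, Npas4 and the other genes of this set, they are immediate-early genes, which are transcribed soon after a stimulus without new protein synthesis. In neurons, calcium and cAMP signals activate kinases that phosphorylate CREB, a factor that binds the cAMP response element (CRE) in many of these promoters. In the retina, immediate-early genes are known to respond to light, to injury and to stress in neurons and in glia.

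Promoters of the NR4A genes are shown because all 3 carried repeated copies of the CREB half-site, and those of Btg2 and Dusp1 because they carried the full element. The letters searched on both strands were TGACG for the half-site and TGACGTCA for the full CRE, and a full CRE also counts as 2 half-sites that overlap. Each sequence is the 250 bases before the RefSeq start in GRCm38.p6, read 5′ to 3′ on the gene's own strand, with half-sites in capitals. The positions are chr15:101266596-101266845 (plus strand) for Nr4a1, chr2:57124004-57124253 (minus strand) for Nr4a2, chr4:48045055-48045304 (plus strand) for Nr4a3, chr1:134079156-134079405 (minus strand) for Btg2 and chr17:26508473-26508722 (minus strand) for Dusp1.
Nr4a1: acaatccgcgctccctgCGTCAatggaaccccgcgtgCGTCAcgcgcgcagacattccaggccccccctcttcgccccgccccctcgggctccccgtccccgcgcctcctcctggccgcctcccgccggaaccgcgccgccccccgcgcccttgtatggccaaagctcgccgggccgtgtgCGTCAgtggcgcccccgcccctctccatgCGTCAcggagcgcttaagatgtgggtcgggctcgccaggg
Nr4a2: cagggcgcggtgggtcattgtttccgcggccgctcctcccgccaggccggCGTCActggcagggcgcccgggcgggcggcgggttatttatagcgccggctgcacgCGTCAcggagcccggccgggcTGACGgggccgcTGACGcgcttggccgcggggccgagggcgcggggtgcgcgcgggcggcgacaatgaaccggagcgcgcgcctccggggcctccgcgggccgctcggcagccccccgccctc
Nr4a3: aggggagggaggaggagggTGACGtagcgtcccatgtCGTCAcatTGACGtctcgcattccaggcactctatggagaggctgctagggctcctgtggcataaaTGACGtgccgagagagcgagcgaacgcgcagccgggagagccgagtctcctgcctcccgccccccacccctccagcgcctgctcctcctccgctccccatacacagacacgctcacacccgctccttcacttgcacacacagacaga
Btg2: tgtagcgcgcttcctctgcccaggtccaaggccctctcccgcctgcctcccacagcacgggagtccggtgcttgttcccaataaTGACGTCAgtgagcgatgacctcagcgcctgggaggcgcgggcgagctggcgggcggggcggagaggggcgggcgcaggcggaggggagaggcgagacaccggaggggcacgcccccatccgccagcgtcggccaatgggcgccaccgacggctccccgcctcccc
Dusp1: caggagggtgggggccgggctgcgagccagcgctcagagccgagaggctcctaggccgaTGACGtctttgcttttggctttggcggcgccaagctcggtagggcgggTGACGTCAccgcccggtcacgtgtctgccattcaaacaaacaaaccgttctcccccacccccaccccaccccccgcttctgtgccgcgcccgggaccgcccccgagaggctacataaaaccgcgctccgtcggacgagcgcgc

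RefSeq promoters were found for 8 of the 10 genes, with 9 windows because Homer1 has a pair of starts. Arc and Ier2 had no entry in the promoter set used here, so their promoters were not examined. The half-site occurred in at least 1 window of all 8 genes, against 24.1% of the 16289 promoters of tested genes. Each NR4A window held 4 half-sites, while 0.246% of promoters of tested genes held 4 or more. The full CRE lay 166 bases before the start of Btg2 and 143 bases before that of Dusp1, and occurred in 2.31% of promoters of tested genes. Npas4 held 2 half-sites, Klf4 held 1, and Homer1 held 3 before one start and 0 before the other. The GC box GGGCGG, a site of the SP family of factors, was found in 7 of the 8 genes, Homer1 being the exception, against 52.8% of promoters of tested genes. Neither the NBRE, AAAGGTCA, nor the serum response element matched in any of these windows, against 0.952% and 1.21% of promoters of tested genes. The 8 windows with a half-site were 62.4% to 80.0% GC, all above the median of 58.8% for promoters of tested genes, and the window without one was 46.8% GC. Half-sites contain a CpG, so base composition differs together with these counts.

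**Figure D1:**
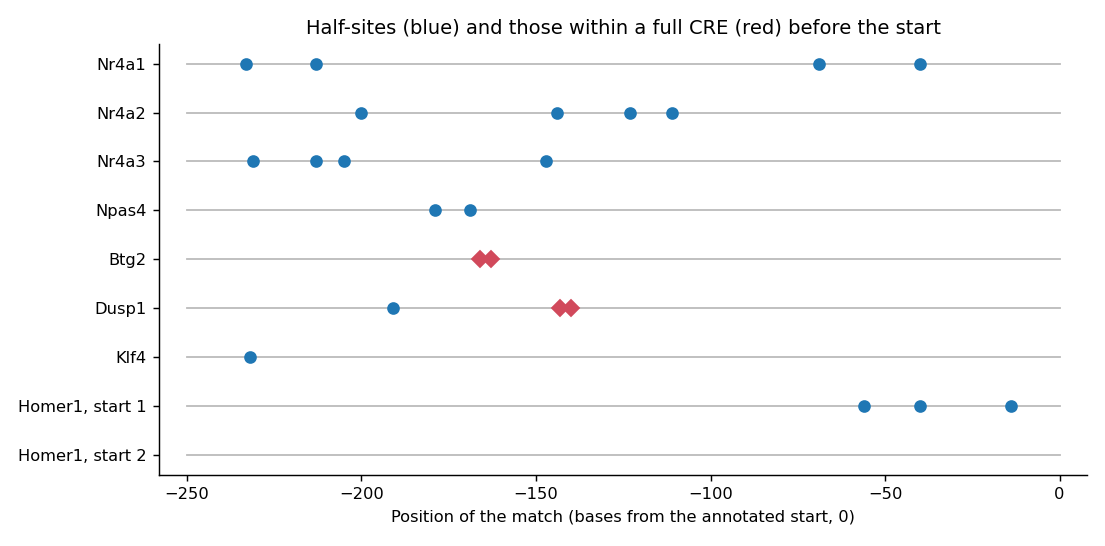
Positions of half-sites (blue) and of the half-sites within a full CRE (red) in the 9 promoter windows of 8 genes. The x axis gives bases before the RefSeq start, and each row is a window. The 3 NR4A windows carry 4 half-sites each, and the full element appears in Btg2 and Dusp1.

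The libraries held 17759146 to 25188870 counts. Levels are given as CPM, the reads of a gene for each 1e+06 reads of its library after TMM scaling, a correction for differences in RNA composition. A floor of 3 counts corresponds to between 0.130 and 0.165 CPM. Kcnv2 transcript was present in every library, ranging from 519 to 551 CPM over WT. It stood above that range in KO 2, at 585 CPM. The level was below it in KO 3, at 447 CPM, and in KO 4 to KO 6, at 398 to 409 CPM. Its log2 fold change was -0.24 (SE 0.14, adjusted p = 0.275 in edgeR's quasi-likelihood test), so the group is called the libraries labelled KO throughout; gene totals do not show which exons the reads came from. Rod markers were abundant in every library, at a summed 33290 to 49490 CPM over 6 genes. KO 4, KO 5 and KO 6 resembled each other closely, with a chi-square per degree of freedom of 5.85 to 6.92 over genes between pairs, whereas pairs with KO 2 or KO 3 gave 44.0 to 116. Summed lens markers reached 42260 CPM in KO 3, against 18.9 to 1214 CPM in WT. Results are therefore also given for KO 2 with KO 3 and for KO 4 to KO 6. These sets share the same WT libraries.

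Of the 10 genes, 2 were called higher, 1 was called lower and 7 were not called in the libraries labelled KO at an adjusted p under 0.05. Over all 20167 tested genes, 4.74% were called higher and 2.84% lower. Nr4a1 and Ier2 were the genes called higher and Btg2 the gene called lower. Nr4a1, Nr4a3 and Ier2 lay above every WT library in all libraries labelled KO, an order that 10.8% of tested genes showed, and Btg2 lay below every WT library, an order that 10.1% showed. The median log2 fold change of the 10 was 0.32, beside 0.001 for all tested genes. Since these genes were chosen by knowledge of this contrast, no inference is drawn from these counts.

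**Figure D2:**
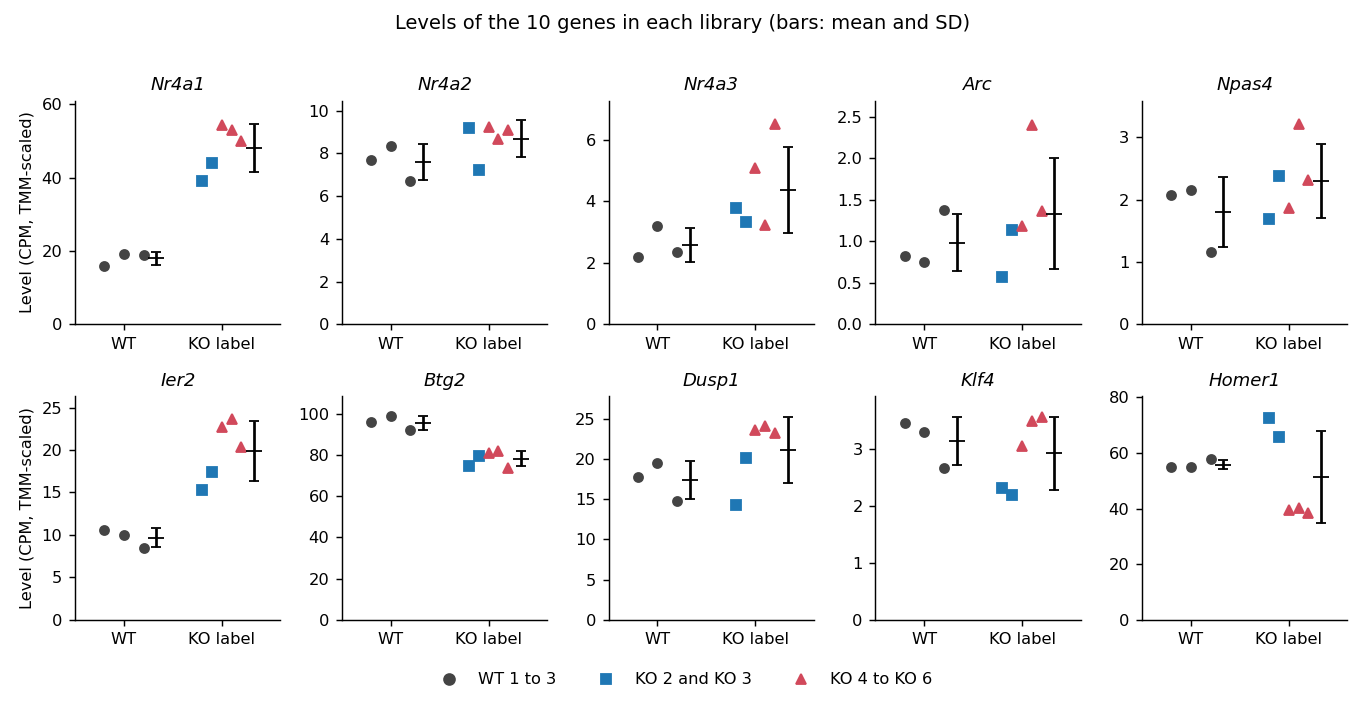
TMM-scaled CPM of each of the 10 genes in every library, on linear axes from 0. Points are libraries, and the bars beside them are the mean and SD of 3 WT and 5 KO libraries. Nr4a1 and Ier2 separate upward, Btg2 separates downward, and Homer1 splits KO 2 and KO 3 from KO 4 to KO 6.

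Nr4a1 (ENSMUSG00000023034, GRCm38 chr15:101254269-101274795, plus strand) encodes NUR77, a transcription factor induced by calcium signals in neurons and by receptor signals in lymphocytes. Its RefSeq start lies within the GENCODE gene body. WT 1 to WT 3 held 16.0, 19.1 and 18.8 CPM, whereas it stood at 39.0, 43.9, 54.4, 53.1 and 49.9 CPM in KO 2 to KO 6. The groups did not overlap, and KO 4 to KO 6 stood above KO 2 and KO 3. The means were 18.0 ± 1.71 CPM (SD, n = 3) and 48.1 ± 6.48 CPM (SD, n = 5), a 2.67-fold higher level with a log2 fold change of 1.42 (SE 0.13), rank 240 from the top among tested genes. It was called higher in each of 8 fits with 1 library left out and in each of 10 fits with 3 KO libraries. Its log2 fold change was 1.21 (SE 0.12) with KO 2 and KO 3 and 1.55 (SE 0.08) with KO 4 to KO 6.

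Nr4a2 (ENSMUSG00000026826, chr2:57106830-57124003, minus strand) encodes NURR1, a factor that midbrain dopamine neurons need to develop. It stood at 7.68, 8.37 and 6.71 CPM in WT and at 9.20, 7.23, 9.26, 8.69 and 9.11 CPM in KO 2 to KO 6. KO 3 fell among the WT libraries, and the other libraries labelled KO lay above them. Nr4a2 had a log2 fold change of 0.20 (SE 0.14) and was not called.

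Nr4a3 (ENSMUSG00000028341, chr4:48045153-48086447, plus strand) encodes NOR1, the remaining receptor of the family. Its counts were 40, 68 and 53 in WT and 87, 70, 103, 63 and 143 in KO 2 to KO 6, so counting error is larger than for Nr4a1. In CPM these were 2.19, 3.20 and 2.35 in WT and 3.78, 3.33, 5.07, 3.22 and 6.51 in KO 2 to KO 6. The groups were separated only by the gap between WT 2 at 3.20 and KO 5 at 3.22 CPM, and KO 6 was highest. Nr4a3 had a log2 fold change of 0.76 (SE 0.27) and was not called over all libraries, but it was called higher with KO 4 to KO 6, at 0.94 (SE 0.26).

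Npas4 (ENSMUSG00000045903, chr19:4984355-4990316, minus strand) encodes a neuronal transcription factor induced by calcium entry, with a role in forming inhibitory synapses. It was measured at 2.08, 2.16 and 1.16 CPM in WT and at 1.69, 2.38, 1.87, 3.22 and 2.32 CPM in KO 2 to KO 6, from 26 to 63 counts. The groups overlapped, and the log2 fold change was 0.35 (SE 0.29). Klf4 (ENSMUSG00000003032, chr4:55527143-55532466, minus strand) encodes a zinc-finger factor that limits axon growth of retinal ganglion cells. Its level was 3.45, 3.29 and 2.66 CPM in WT and 2.30, 2.19, 3.05, 3.48 and 3.55 CPM in KO 2 to KO 6, with KO 2 and KO 3 below every WT library and the others within or just above the WT range. Klf4 had a log2 fold change of -0.10 (SE 0.22), and neither gene was called.

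Ier2 (ENSMUSG00000053560, chr8:84661331-84662852, minus strand) encodes a nuclear protein of the immediate-early response. Its level was 10.6, 9.97 and 8.48 CPM in WT and 15.2, 17.4, 22.8, 23.6 and 20.3 CPM in KO 2 to KO 6. No library labelled KO overlapped WT, and KO 4 to KO 6 again exceeded KO 2 and KO 3. Means of 9.70 ± 1.10 CPM (SD, n = 3) and 19.9 ± 3.54 CPM (SD, n = 5) gave a 2.05-fold higher level, with a log2 fold change of 1.03 (SE 0.17). Ier2 was called in 6 of 8 fits with 1 library left out. It was not called without WT 2 (1.06) or without WT 3 (0.95), nor in KO 2 and KO 3 against WT (0.75, SE 0.15).

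Arc (ENSMUSG00000022602, chr15:74669083-74672570, minus strand) encodes a synaptic protein that drives removal of AMPA receptors and forms capsid-like particles that carry RNA. It was among the least abundant of the set, at 0.822, 0.752 and 1.38 CPM in WT and 0.564, 1.14, 1.18, 2.40 and 1.37 CPM in KO 2 to KO 6, from 13 to 47 counts. KO 2 was the lowest of all libraries and KO 5 the highest. With a log2 fold change of 0.42 (SE 0.43), Arc was not called, and the value became 0.10 without KO 5, 0.15 with an offset for GC content, and -0.22 with KO 2 and KO 3 alone.

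Homer1 (ENSMUSG00000007617, chr13:93299635-93405129, plus strand) encodes a scaffold protein of the postsynaptic density. Activity induces its short form, Homer1a, and a count per gene cannot separate that form among the 12 annotated transcripts. The level was 54.9, 54.8 and 57.6 CPM in WT, 72.5 and 65.8 CPM in KO 2 and KO 3, and 39.3, 40.1 and 38.3 CPM in KO 4 to KO 6. Thus KO 2 and KO 3 lay above every WT library, while KO 4 to KO 6 lay below every one. The log2 fold change over all libraries, -0.12 (SE 0.21), averages these, and was 0.31 (SE 0.09) with KO 2 and KO 3 and -0.50 (SE 0.06) with KO 4 to KO 6.

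Dusp1 (ENSMUSG00000024190, chr17:26505590-26562128, minus strand) encodes a phosphatase that switches off MAP kinases and so limits the response that induced it. Its level was 17.8, 19.5 and 14.8 CPM in WT and 14.3, 20.2, 23.6, 24.1 and 23.2 CPM in KO 2 to KO 6. KO 2 was the lowest of the 8 libraries, and KO 4 to KO 6 lay above every WT library. Over all libraries Dusp1 had a log2 fold change of 0.28 (SE 0.18) and was not called; with KO 4 to KO 6 it was 0.46 (SE 0.10) and the gene was called higher. Dusp1 overlaps Ergic1 on the opposite strand by 11 exonic bases, and the strand setting of the counting is not given in the sources used here.

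Btg2 (ENSMUSG00000020423, chr1:134075170-134079120, minus strand) encodes an antiproliferative protein that recruits the CCR4-NOT deadenylase to messenger RNAs. Its level was 96.1, 98.7 and 91.9 CPM in WT and 74.7, 79.2, 80.6, 81.8 and 73.8 CPM in KO 2 to KO 6. All 5 libraries labelled KO lay below WT, at a mean of 78.0 ± 3.61 CPM (SD, n = 5) against 95.6 ± 3.44 CPM (SD, n = 3), and KO 2 and KO 3 did not stand apart from KO 4 to KO 6. The ratio was 0.816 and the log2 fold change -0.29 (SE 0.07). The call was kept in only 2 of 8 fits with 1 library left out, being lost without any WT library or without KO 4, KO 5 or KO 6, while the log2 fold change stayed between -0.32 and -0.26.

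Per kilobase of the longest transcript, Btg2 was the most abundant of the 10 genes in WT, at 34.8 CPM per kb with a range of 33.5 to 36.0. Homer1 followed at 9.76 CPM per kb, above the ranges of the genes after it. Dusp1, Nr4a1 and Ier2 came next at 7.50, 7.04 and 6.37 CPM per kb, and their WT ranges overlapped. Nr4a2 stood at 2.13 and Klf4 at 1.04 CPM per kb, each clear of its neighbours. Npas4, Nr4a3 and Arc were lowest, at 0.475, 0.451 and 0.322 CPM per kb, with overlapping ranges. In the libraries labelled KO, Nr4a1 at 18.8 and Ier2 at 13.1 CPM per kb came next after Btg2 at 28.4 by the mean, but the range of Ier2, 10.01 to 15.5, overlapped those of Nr4a1 (15.3 to 21.3), Homer1 (6.71 to 12.7) and Dusp1 (6.17 to 10.4).

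**Figure D3:**
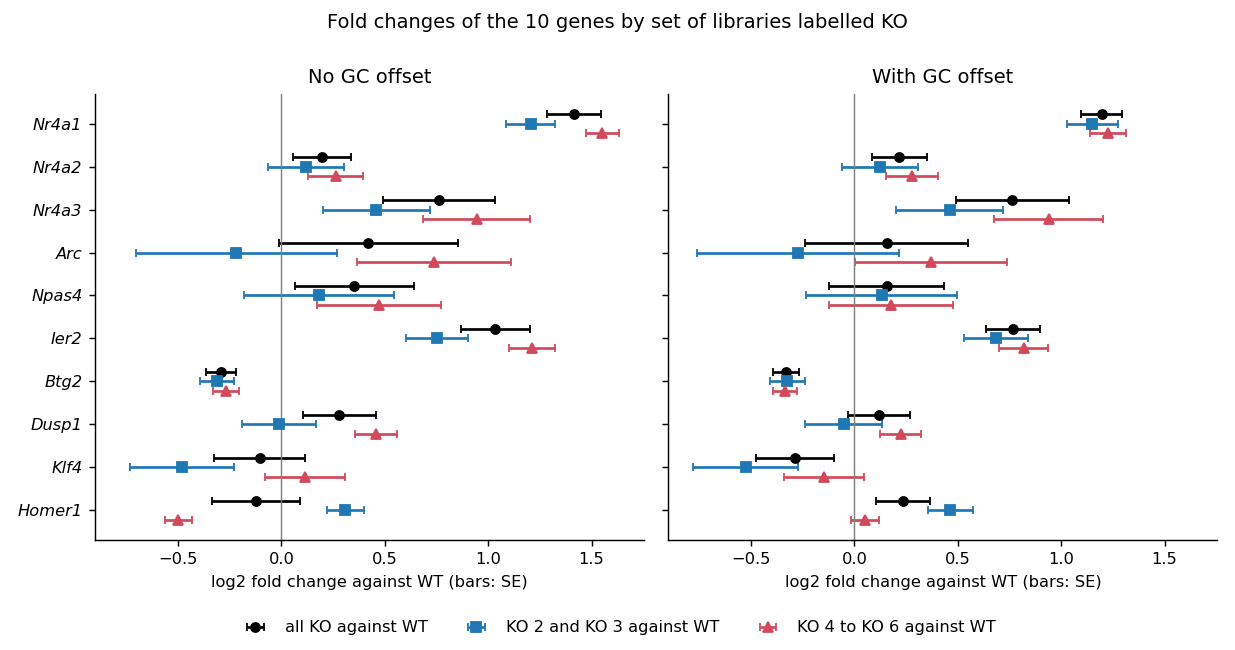
Log2 fold change against WT of each gene with its standard error, for all 5 libraries labelled KO, for KO 2 with KO 3 and for KO 4 to KO 6, without (left) and with (right) an offset for GC content. Nr4a1 and Ier2 lie above 0 and Btg2 below 0 in each set and panel, while Homer1 lies on both sides of 0 without the offset and above 0 with it.

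In KO 2 and KO 3 against WT, 1 of the 10 genes, Nr4a1, was called higher and 0 were called lower, where 0.624% and 0.267% of tested genes were called in those directions by edgeR; at an unadjusted p under 0.05, 1 was lower. In KO 4 to KO 6 against WT, 4 were called higher (Nr4a1, Nr4a3, Ier2 and Dusp1) and 2 lower (Btg2 and Homer1), where 22.3% and 20.5% of tested genes were called. The mean of KO 4 to KO 6 exceeded that of KO 2 and KO 3 for 9 of the 10 genes, all but Homer1, against 51.5% of tested genes. For Nr4a1, Ier2, Dusp1, Klf4 and Arc, 5 of the 10, every library of KO 4 to KO 6 exceeded both KO 2 and KO 3, against 23.9% of tested genes. KO 4 to KO 6 were set apart because they resembled each other. KO 2 and KO 3 are the libraries that remained, with a chi-square per degree of freedom of 110 between them. Neither set is a labelled group.

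Log2 fold changes rose with the GC content of transcripts, with a Spearman rho of 0.459 over all libraries labelled KO (18028 genes), 0.169 with KO 2 and KO 3 (18043 genes) and 0.534 with KO 4 to KO 6 (17672 genes). Genes are not independent replicates, and no test is attached. By GC content, Ier2 ranked at the 97.2nd percentile of tested genes, Arc at the 93.6th, Nr4a1 at the 87.5th and Homer1 at the 1.8th. With an offset for GC content in each library, the rho was -0.011. Nr4a1 remained called at a log2 fold change of 1.20, Ier2 at 0.77 and Btg2 at -0.33, in a fit that called 4.24% of genes higher and 2.8% lower. With the offset, the values for KO 2 with KO 3 and for KO 4 to KO 6 were 1.15 and 1.22 for Nr4a1 and 0.69 and 0.82 for Ier2, closer to each other than without it. Homer1 changed sign, to 0.23 over all libraries and to 0.05 with KO 4 to KO 6, where it was no longer called. Dusp1 with KO 4 to KO 6 fell to 0.22 and lost its call, whereas Nr4a3, whose transcript is 48.4% GC beside a median of 49.1%, kept 0.94 and its call. The cause of the GC trend was not tested.

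**Figure D4:**
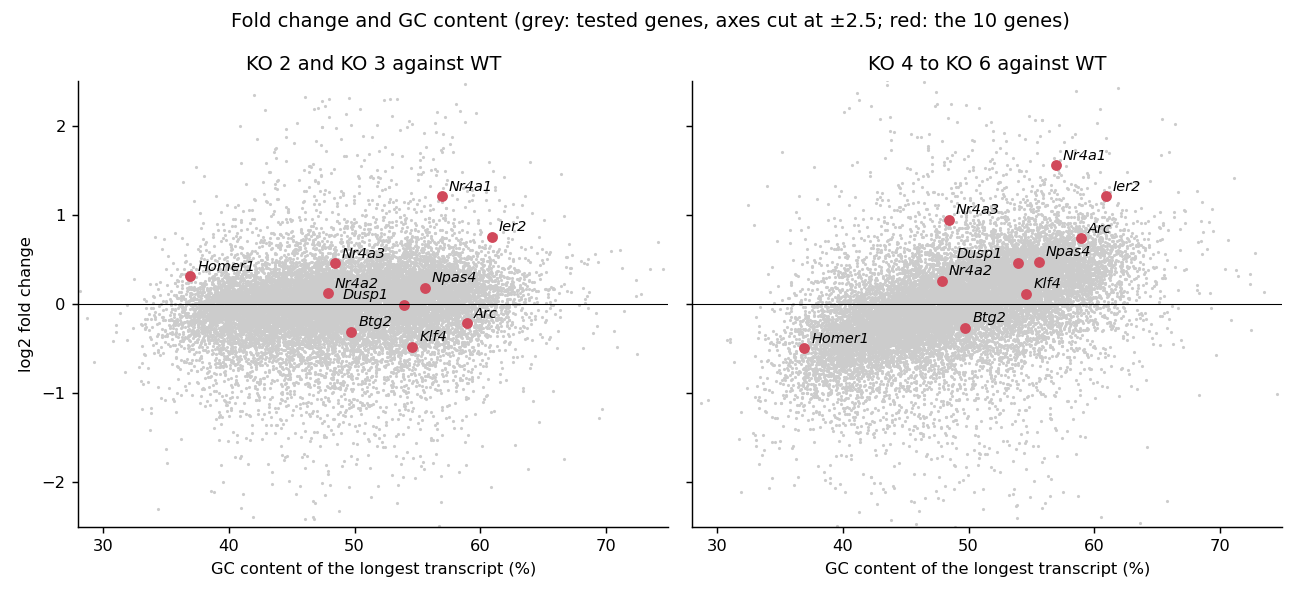
Log2 fold change against WT (y) by GC percent of the longest transcript (x), without a GC offset, for KO 2 with KO 3 (left) and KO 4 to KO 6 (right). Grey points are tested genes with values beyond the axes not drawn, and red points are the 10 genes. The cloud tilts upward with GC in the right panel, where Homer1, at 36.9% GC, lies below 0.

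A list of 42 other activity-induced genes was written from general knowledge, with earlier results of these data known, so its counts are not independent evidence. Of these, 8 rose and 0 fell in the libraries labelled KO, with a median log2 fold change of 0.19, beside 4.74% of tested genes higher and a median of 0.001. Under an unadjusted edgeR p of 0.05, 4 were lower, while DESeq2 called 0 lower and limma voom 6. Those with the largest changes were Atf3, a stress-induced factor, from 3.38 to 9.38 CPM (log2 fold change 1.47, SE 0.26, edgeR adjusted p = 0.0140), and Sgk1, a kinase that regulates ion channels and transporters, from 214 to 447 CPM (1.06, SE 0.13, adjusted p = 0.00244). Csrnp1, a nuclear protein (0.90, adjusted p = 0.0491), and Sik1, a kinase that restrains CREB coactivators (0.87, adjusted p = 0.0207), also rose. Sgk1 kept its call in 8 of 8 fits with 1 library left out, Atf3 in 6, Sik1 in 3 and Csrnp1 in 2. The number that rose was 1 without WT 1, 2 without WT 2 or WT 3, 3 without KO 4 or KO 5 and 5 without KO 6, and 11 or 12 without KO 3 or KO 2. KO 4 to KO 6 against WT gave 17 higher and 6 lower, where 22.3% and 20.5% of all tested genes were called, and KO 2 with KO 3 gave 2 higher, where 0.624% were called. With the GC offset over all libraries, 7 rose and the median fell to 0.072, and Csrnp1 was not called (0.66, adjusted p = 0.0718). With the offset in KO 4 to KO 6, 12 were higher and 2 lower, where 16.3% and 15.6% of tested genes were called, and the median went from 0.30 to 0.14.

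Of the 11 EGR and AP-1 genes, 9 were tested, 5 (55.6%) rose and 0 fell, with a median log2 fold change of 0.86, beside 4.74% higher and 2.84% lower among all tested genes. Likewise 0 were lower in edgeR at an unadjusted p under 0.05, in DESeq2 and in limma voom. The largest were Egr1, from 15.2 to 125 CPM (log2 fold change 3.03, SE 0.24, edgeR adjusted p = 0.000142), and Fos (1.46, SE 0.14, adjusted p = 0.000746), both transcription factors of the immediate-early response. Junb rose with a log2 fold change of 1.27 (adjusted p = 0.00513) and Fosb with 1.01 (adjusted p = 0.00843), both subunits of AP-1. Egr1, Fos and Junb kept their calls in all 8 fits with 1 library left out, and Fosb in 6, losing it without WT 1 or WT 2.

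Among 26 regulators upstream of activity-dependent transcription, 2 rose, 1 fell and 23 did not pass the test, with a median log2 fold change of 0.14. That is 7.69% higher, beside 4.74% of all tested genes, and nothing is read from so few calls. Mrtfa, a coactivator of serum response factor, rose by 0.61 (edgeR adjusted p = 0.0255), Crebbp, the CREB-binding acetyltransferase, rose by 0.58 (adjusted p = 0.0421), and Calm2, a calmodulin gene, fell by 0.45 on the log2 scale (adjusted p = 0.0494). Among 25 tested relatives and partners of the 10 genes, such as retinoid X receptors, Shank scaffolds and other KLF factors, 2 (8%) rose and 0 fell, with a median of 0.12. At an unadjusted edgeR p under 0.05, 1 was lower, and DESeq2 called 0 and limma voom 4 lower. Shank1, a postsynaptic scaffold that binds Homer, was among those that rose (0.59, edgeR adjusted p = 0.0350). Mrtfa, Crebbp, Calm2 and Shank1 each kept their call in 2 of 8 fits with 1 library left out; all 4 lost it without any WT library and without KO 4, KO 5 or KO 6. With the GC offset, Calm2 (-0.26, edgeR adjusted p = 0.105) and Shank1 (0.32, adjusted p = 0.130) were not called, and Mrtfa (0.36, adjusted p = 0.0281) and Crebbp (0.47, adjusted p = 0.0418) were called.

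**Figure D5:**
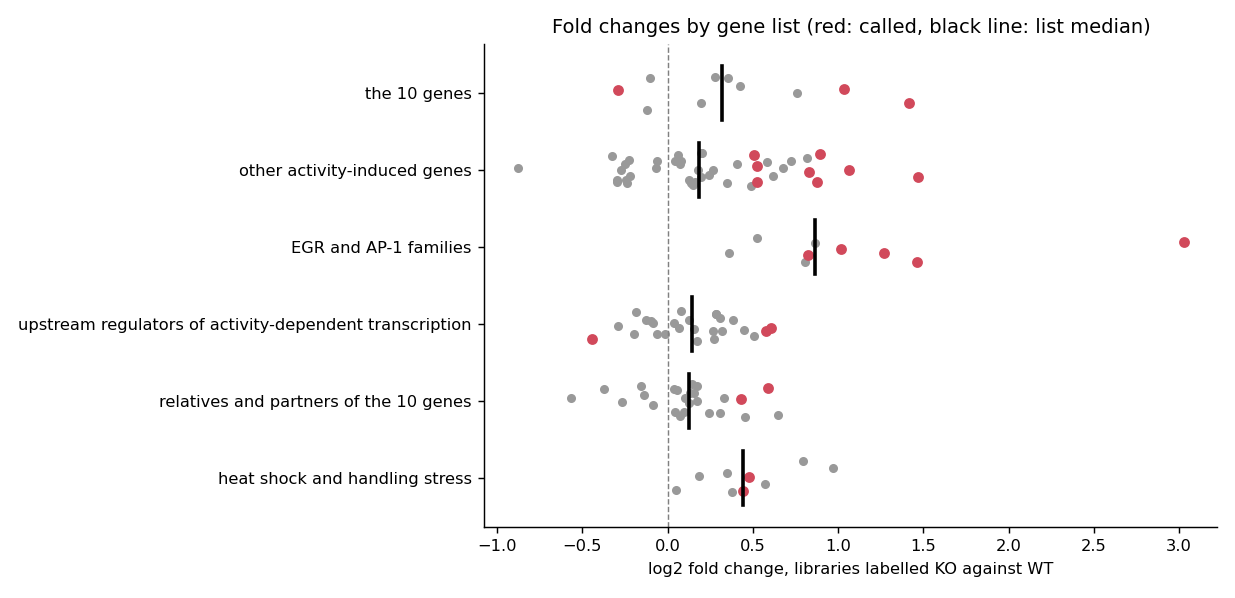
Log2 fold change of every tested gene in the 10 genes, the 4 lists of related genes and the stress list, 1 point per gene, with list medians marked and called genes distinguished. The medians drawn run from 0.12 for relatives and partners to 0.86 for the EGR and AP-1 families, beside 0.001 for all tested genes.

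Some markers of other cell types and of stress also differed between the labelled groups. Over all tested genes, 4.74% were called higher and 2.84% lower, and nothing is read from the few calls in these short lists. Gfap, the intermediate filament of reactive glia, rose (log2 fold change 1.67, edgeR adjusted p = 0.000382), and the sum of 4 astrocyte markers was 38.3 to 40.3 CPM in WT and 65.6 to 110 CPM in the libraries labelled KO, with 1 of 4 called higher. Without Gfap the other 3 summed to 17.6 to 19.9 and 18.2 to 31.9 CPM, which overlap. Cone markers had sums of 793 to 998 CPM in WT and 531 to 709 CPM in the libraries labelled KO and 2 of 6 called lower, Pde6h (-0.74, edgeR adjusted p = 0.00478) and Gnat2 (-0.47, adjusted p = 0.0318), both parts of cone phototransduction; Opn1mw (0.05) and Cnga3 (0.30) had positive values and were not called. Of 4 horizontal cell markers 1 was called lower in edgeR, Calb1 (-0.49, adjusted p = 0.0454). Lhx1 (0.07), Onecut1 (0.14) and Onecut2 (0.02) had positive values and were not called. Muller glia markers summed to 3548 to 3742 and 3590 to 5364 CPM, with a median log2 fold change of 0.29 and 1 of 6 called higher, Sox9 (0.62, adjusted p = 0.0269); reactive Muller glia can also express Gfap. Microglial markers summed to 22.9 to 25.8 and 28.6 to 40.8 CPM, with 2 of 6 called higher. Endothelial and pericyte markers summed to 215 to 231 and 299 to 374 CPM, with 2 of 6 called higher. Of 9 heat shock and stress genes 2 rose, Hspa8 (0.48, adjusted p = 0.0470) and Hsph1 (0.44, adjusted p = 0.0358), each called in 2 of 8 fits with 1 library left out; the sum was 2694 to 3026 CPM in WT and 2989 to 4068 CPM in the libraries labelled KO. The inducible Hspa1b was 25.4 to 36.1 CPM in WT, 38.0 and 32.1 CPM in KO 2 and KO 3, and 74.5 to 83.8 CPM in KO 4 to KO 6, and its near-identical copy Hspa1a, with which reads may be shared, was 35.5 to 44.5, then 51.9 and 40.1, then 83.2 to 93.7 CPM. Neither was called over all libraries (0.97 and 0.79). For both, every library of KO 4 to KO 6 exceeded KO 2 and KO 3, an order that 23.9% of tested genes showed. In the same list Hsp90aa1 was highest in KO 2, at 2914 CPM, and Hmox1 in KO 3, at 7.42 CPM. No gene of these lists was under the floor in every library. Ganglion cell markers summed to 920 to 1020 and 905 to 1304 CPM, and amacrine markers to 700 to 724 and 697 to 900 CPM, with 0 of 7 called in each list by edgeR. At an unadjusted edgeR p under 0.05, 2 of the ganglion and 1 of the amacrine markers differed. DESeq2 called 0 in each, and limma voom called 5 and 1, in a fit that called 8248 of 20167 genes. In the rod, bipolar, blood and pigment epithelium lists edgeR also called 0, while limma voom called some in each. The part of these cells and of stress in the levels of the 10 genes was not tested. In bulk tissue, more cells of a type and more RNA per cell cannot be told apart.

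Across the 8 libraries, the genes whose log2 CPM followed Nr4a1 most closely were Iars1, Mfsd4a, Camk2g, Tnc and Gm3716, with Pearson's r of 0.988 to 0.989. Camk2g, a subunit of calcium/calmodulin-dependent kinase II, was 90.6, 89.1 and 85.6 CPM in WT and 160, 164, 194, 186 and 175 CPM in KO 2 to KO 6. Tnc, the matrix protein tenascin C, was 13.4, 15.2 and 14.5 CPM in WT and 22.7, 21.6, 28.6, 26.3 and 25.6 CPM in KO 2 to KO 6. Both shared the pattern of Nr4a1, with KO 4 to KO 6 above KO 2 and KO 3 and these above WT. The mean of the NR4A receptors was followed most closely by Phlda3, Zbtb7c, Atf3, Junb and Rpl27, with r of 0.973 to 0.984. The points share library depth, GC trend and labelled group, so these correlations describe the libraries only.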

How the data were processed

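The authors deposited a table of estimated counts per gene and library, held as whole numbers. Per the submitters' processing notes, which give names with no role or order, Trim Galore, Salmon 1.10.2, DESeq2 and the build GRCm38 were used. Every gene had at least 16 counts in total. They were used as deposited.

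Counts were scaled by TMM, filtered with filterByExpr and tested with edgeR 4.0.16 (quasi-likelihood, R 4.3.3), comparing WT with KO over 8 libraries in a model of the group alone. Calls were made under an adjusted p of 0.05 (Benjamini-Hochberg, 20167 genes). Depth was 17759146 to 25188870 counts, and floors cover counting error only. Standard errors come from the quasi-likelihood fit and include the spread between libraries. The p-values measure the spread between these libraries, each from 2 pooled retinas.

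The members and the gene lists were chosen with earlier results of these data known. Named genes are the 10 genes, Kcnv2, and from each other list the called genes with the largest changes, at most 4 a direction (a gene that met this rule is not reported here); the genes most like Nr4a1 and the mean of the NR4A receptors are the 5 with the highest Pearson's r over log2 CPM (prior count 2). Gfap, Sox9, Hspa1a, Hspa1b, Hsp90aa1, Hmox1 and the cone and horizontal cell markers were named after their values were seen. So were Camk2g and Tnc among the most alike genes. GENCODE M21 (GRCm38) gave positions, length and GC content, and RefSeq (GRCm38.p6) the promoters. GC offsets came from a lowess fit per library.

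Alternatives were DESeq2 1.42.0, limma 3.58.1 voom with quality weights, other scalings and filters, fits without libraries, and a replicate block. The crossed block and the GC offsets within sets of KO libraries were chosen after seeing the data. On simulated counts for the comparison of WT with KO over 19539 genes, 194 of 200 genes changed 2-fold were recovered (97%), with 6 others called. With a simulated GC trend and no offset, 185 of 200 were recovered among 19552 genes, with 44 others called. The Spearman rho of that trend was 0.645, against 0.459 in the comparison reported. With the trend and the offset, 193 of 200 were recovered among 17605 genes, with 12 others called. These recoveries describe the simulated counts only, and recovery at the spread of the real KO libraries was not tested. Libraries of a group differed by a chi-square per degree of freedom of at least 5.85, so each counts as 1 sample.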

Additional observations from a re-analysis of the deposited data

Results flagged for a closer look

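Nr4a2 in KO 3 stood apart from the other libraries labelled KO, at 7.23 CPM against 8.69 to 9.26 CPM. Its gap to the nearest of the other libraries was 0.719 of the group's range, above Dixon's limit of 0.71 for 5 samples. Both ends were examined for the 10 genes, and chance gives such a gap in about 1 in 20 groups. KO 3 is the library with summed lens markers of 42260 CPM.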

How the results depend on the processing

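Nr4a1 was called in all fits except the unpaired fit of WT 2, WT 3, KO 2 and KO 3 (log2 fold change 1.13). Other results depended on which libraries entered, and the cause was not tested. Over all genes, 1529 were called. DESeq2 called 3034 and limma voom 8248. Fits with 1 library left out called 132 to 3992. With 3 KO libraries, 8416 were called with KO 4 to KO 6. Without KO 2 and KO 4, KO 5 or KO 6 in turn, the counts were 399, 496 and 645. Without KO 3 and KO 4, KO 5 or KO 6 in turn, they were 2540, 2225 and 2593. Without 2 of KO 4 to KO 6, they were 118, 191 and 203. Using KO 2 with KO 3 alone gave 180, or 165 with a GC offset, and using KO 4 to KO 6 with a GC offset gave 5645. Of the 10 genes, those called higher were 4 with limma voom and with KO 4 to KO 6, 1 without KO 4 and KO 5 or KO 6 and with KO 2 and KO 3 (also with the GC offset), and 1 to 2 with 1 library left out. Those called lower were 2 with limma voom and with KO 4 to KO 6, 0 to 1 with 1 library left out, and 0 without the filter on low counts, in 8 of the other fits with 3 KO libraries (in the fit without KO 3 and KO 5, 1) and with KO 2 and KO 3. Of the other activity-induced genes, 16 were called higher with limma voom, 17 with KO 4 to KO 6, 3 or 4 without KO 2 and one of KO 4 to KO 6, 1 or 2 without 2 of KO 4 to KO 6, 2 with KO 2 and KO 3 (1 with the GC offset) and 1 to 12 with 1 library left out.

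Both groups have libraries numbered 2 and 3, and deviations of same-numbered libraries correlated at -0.19. With so few libraries this can neither show nor exclude a pairing or a batch, and the labels give none. The replicate block over these 4 libraries called 52 genes in all, 176 with the GC offset and 14 unpaired; crossed, it called 527. Of the 10 genes, the block called 1 higher with or without the GC offset and the unpaired fit 0; each of these fits, and the crossed one, called 0 lower. Of the other activity-induced genes the block called 0, or 1 with the GC offset, the crossed block 3 and the unpaired fit 0.

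The genes whose log2 fold change turned sign were not called over all libraries, although Homer1 was called lower with KO 4 to KO 6 and by limma voom, and Dusp1 higher. The log2 fold change of Arc was -0.043 without KO 5 and KO 6, -0.218 with KO 2 and KO 3 (-0.272 with the GC offset), -0.333 with the block (-0.397 with the GC offset), -0.336 crossed and -0.327 unpaired. The log2 fold change of Dusp1 was -0.011 with KO 2 and KO 3, -0.052 there with the GC offset and -0.048 in the block with the GC offset. The log2 fold change of Klf4 was 0.114 with KO 4 to KO 6 and 0.022 with limma voom. The log2 fold change of Homer1 was 0.079, 0.093 and 0.087 without 2 of KO 4 to KO 6, 0.31 with KO 2 and KO 3 (0.464 with the GC offset), 0.235 with the GC offset over all libraries, 0.052 with it in KO 4 to KO 6, 0.297 with the block and crossed, 0.446 in the block with the GC offset and 0.298 unpaired. Nr4a3 was called higher also by DESeq2 and limma voom. At 13 to 143 counts per library, Arc, Npas4, Klf4 and Nr4a3 are limited most by depth.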
